A study of Mus musculus with 36 samples.

Results

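The genes described here store, sense and move zinc and copper in the mouse liver: the metallothioneins Mt1 and Mt2, the zinc sensor Mtf1, the zinc transporters Slc30a1 and Slc39a14, and the copper genes Slc31a1, Atox1, Atp7b, Commd1 and Cp. They were chosen by symbol, and all 10 were found among the 21889 symbols of the table. Liver RNA was sequenced from 36 male C57BL/6J mice (C57BL/6 in the labels), 3 at each of 12 ages. The first age was late in gestation (GD17.5, which the labels give as day -2 from birth), and Day 0 livers were taken right after birth, before any suckling. Days 1, 3, 5, 10, 15 and 20 followed, weaning was at 21 days of age, and Days 25, 30, 45 and 60 came after it. The mice were untreated, came from several litters, and the 3 of an age are separate animals. Ages were grouped as perinatal (GD17.5 to Day 5, 15 mice), pre-weaning (Days 10 to 20, 9 mice) and adolescent to adult (Days 25 to 60, 12 mice).

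Metallothioneins are small proteins, rich in cysteine, that bind zinc and copper, and the liver around birth is known for large stores of metal held in this form. Free zinc activates the transcription factor Mtf1, which binds metal response elements in front of the metallothionein genes and of Slc30a1, the transporter that carries zinc out of cells. Copper enters hepatocytes through Slc31a1, is handed by the chaperone Atox1 to the pump Atp7b, and leaves either in bile or in the blood bound to ceruloplasmin (Cp).

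The metal response elements are shown because Mt1 and Mt2 moved together in these livers. Mt1 and Mt2 lie on the plus strand of chromosome 8, and Mt2 ends 5521 bases before the start of Mt1 (NCBI37/mm9, GENCODE M1 gene starts). The core of the element, TGCACNC or TGCGCNC on either strand, was sought from 250 bases before to 50 bases after each start. Capitals mark it in the 250 bases before the start, written 5′ to 3′ in the direction of the gene, of Mt1 (chr8:96702739-96702988), Mt2 (chr8:96696268-96696517) and the other classical Mtf1 target, Slc30a1 (chr1:193730396-193730645, plus strand).
Mt1: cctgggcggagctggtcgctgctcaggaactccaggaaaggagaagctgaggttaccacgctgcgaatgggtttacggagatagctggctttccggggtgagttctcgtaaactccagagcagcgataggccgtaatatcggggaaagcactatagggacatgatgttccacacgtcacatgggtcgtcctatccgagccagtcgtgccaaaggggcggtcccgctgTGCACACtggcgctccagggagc
Mt2: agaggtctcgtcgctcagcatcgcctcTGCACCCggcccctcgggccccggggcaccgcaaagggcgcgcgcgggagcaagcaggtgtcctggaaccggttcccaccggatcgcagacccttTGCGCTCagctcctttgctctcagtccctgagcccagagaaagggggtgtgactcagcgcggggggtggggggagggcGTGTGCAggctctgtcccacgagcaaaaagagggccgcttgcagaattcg
Slc30a1: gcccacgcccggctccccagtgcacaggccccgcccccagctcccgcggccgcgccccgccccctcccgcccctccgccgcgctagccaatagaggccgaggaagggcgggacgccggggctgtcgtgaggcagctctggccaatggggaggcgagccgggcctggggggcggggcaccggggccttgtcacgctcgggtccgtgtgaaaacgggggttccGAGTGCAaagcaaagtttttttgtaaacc
Mt1 site after the start: TGCACTCcgcccgaaaagTGCGCTC
The last line is the short stretch that holds the other 2 cores of Mt1, at chr8:96702991-96703015, after the annotated start used here. Where Mt1 transcripts begin in these livers was not tested, so these cores may or may not be transcribed. Mt1 held 3 cores in the 300 bases, Mt2 held 4 (the fourth, GTGCGCA, also after the start), Slc30a1 and Commd1 held 1 each and the other 6 genes none. Of 22380 promoters of the same length, 28.5% held at least 1 core, 2.45% at least 3 and 0.594% at least 4. Such a match describes the letters alone, and binding by Mtf1 or an effect on expression was not tested. The counts depend on the annotated starts and on the window.

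Values are FPKM, fragments scaled to transcript length and to the mapped reads of the library, and they carry no counts. Differences between libraries remain after this scaling, so differences between age groups are also given under other scalings. Summed FPKM ranged from 353712 to 450597 per mouse, and the correlation of log2 values between mice of one age was at least 0.952. All 9 hepatocyte markers were detected. They summed to 10506 to 11797 FPKM at GD17.5, 63772 to 73189 at Day 0, 78193 to 119841 before weaning and 44635 to 74183 in the adolescent to adult livers, and 5 of the 9 were lower and 2 higher in the perinatal than in the adolescent to adult livers. All 8 erythroid and all 8 neutrophil markers were higher in the perinatal than in the adolescent to adult livers. Within an age, libraries also differed in a trend with transcript length, by -0.31 to 0.17 on the log2 scale per doubling of length, lowest in Day 30 replicate 1 and Day 25 replicate 2. In whole liver, fewer cells of a type and less RNA per cell cannot be told apart.

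Each difference was tested with limma on log2(FPKM + 1) in a fit of the 11149 genes whose mean reached 1 FPKM at some age, a limit that all 10 members passed, with Benjamini-Hochberg adjusted p-values. Against Day 60 all 10 members differed at some age, as did 90.7% of all genes tested. In the perinatal livers 7 members were higher than in the adolescent to adult livers, where 70.2% of all genes were higher, and 3 were lower, where 15.5% of all genes were lower. The members' median difference was 0.43 on the log2 scale, against 0.54 over all genes, so this count is near the background. It also moved with the scaling of the libraries. With libraries brought to a common upper quartile the median of all genes fell to 0.14, 46.8% of all genes were higher and 32% lower, and 3 members were higher and 4 lower; with each library's trend with length and GC content removed, 41.3% and 39.9% of genes and 3 and 6 members were.

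In the pre-weaning livers 5 members were higher than in the adolescent to adult ones (44.9% of all genes) and 1 was lower (12.4%). Against the perinatal livers, 3 pre-weaning members were higher (14.6% of all genes) and 3 lower (61.2%); with a common upper quartile these became 6 (31.7%) and 2 (35.1%), and with the length and GC trend removed 6 (37.2%) and 2 (37.2%). Under all 4 scalings Mt1 and Mt2 fell from group to group, Slc39a14 and Cp were higher before weaning than in both other groups, and Slc31a1 and Atox1 were lower in perinatal than in adolescent to adult livers. The perinatal direction of Mtf1, Slc30a1, Atp7b and Commd1 depended on the scaling.

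Mt1 mRNA was highest before birth and fell with age. In the 3 livers of GD17.5 were 1812, 2564 and 2853 FPKM of Mt1, which ranked from 10 to 14 among all genes. Newborn livers (Day 0) held 1215, 898 and 1055 FPKM, and those of Day 5 held 362, 944 and 1382 FPKM. Mt1 at Day 30 was 25.5, 15.8 and 17.4 FPKM, the lowest of any age, and at Day 60 it was 21.3, 18.1 and 113 FPKM.

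The 15 perinatal mice spanned 362 to 2853 FPKM of Mt1 and the 12 adolescent to adult mice 15.8 to 183 FPKM, so the groups did not overlap. The difference was 5.02 ± 0.32 (SE) on the log2 scale (adjusted p = 9.04e-15, limma), about 32.4-fold, and between 4.29 and 4.92 under the other scalings. The ratio of the group means of FPKM was 24.9. The pre-weaning mice lay between, at 121 to 670.4 FPKM, and overlapped both. They differed from the adolescent to adult mice by 2.66 ± 0.36 (adjusted p = 4.58e-07) and from the perinatal mice by -2.36 ± 0.35 (adjusted p = 6.02e-07).

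Mt2, the neighbour of Mt1 and like it expressed in most tissues, followed the same course at a lower level. At GD17.5 Mt2 was at 1490.4, 1683 and 1452 FPKM, and at Day 0 at 657, 385 and 574 FPKM. The lowest values were again at Day 30, where the 3 livers held 2.88, 3.02 and 3.18 FPKM. Day 45 livers held 24.5, 18.96 and 25.7 FPKM and Day 60 livers 7.44, 4.04 and 30.4 FPKM of Mt2.

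Perinatal livers ranged from 175 to 1683 FPKM of Mt2 and adolescent to adult livers from 2.88 to 179 FPKM, an overlap of 1 mouse in each group. The log2 difference was 5.40 ± 0.34 (adjusted p = 8.04e-15, limma), or 42.3-fold, and 4.59 to 5.38 under the other scalings. The ratio of the group means of Mt2 FPKM was 21.9. Mt2 was called in 9 of the 11 ages tested against Day 60 and Mt1 in 8 of them, where the median gene was called in 5. For both, those ages were GD17.5 to Day 20, and for Mt2 also Day 25.

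**Figure D1:**
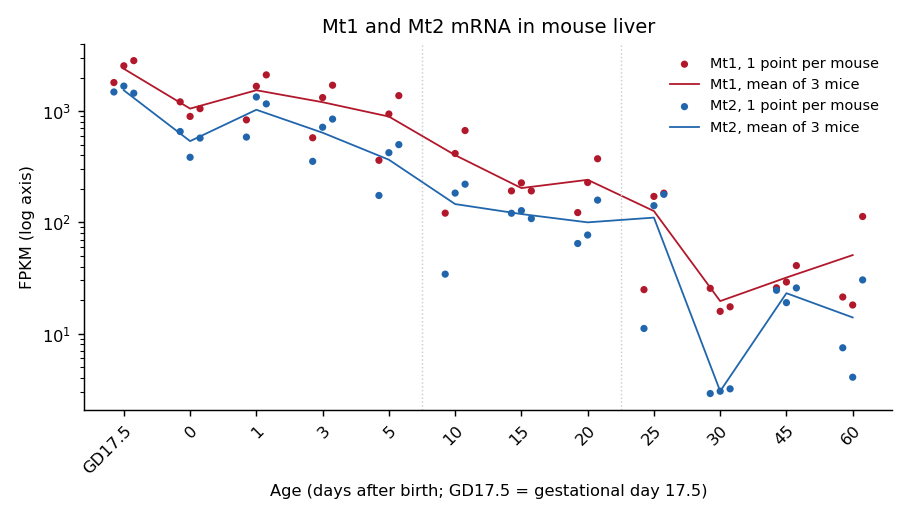
Mt1 (red) and Mt2 (blue) in FPKM on a log axis at 12 ages, with 1 point per mouse, lines through the means of 3 mice and dotted lines between the age groups. Mt1 ran from 2409.7 FPKM at GD17.5 to 19.6 at Day 30, where Mt2 was at 3.03, and the 3 mice of Days 10, 25 and 60 spread widely.

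Together Mt1 and Mt2 made up 0.926% ± 0.054 (SD, n = 3) of all FPKM at GD17.5. Their share was 0.370% ± 0.061 at Day 0 and 0.635% ± 0.230 at Day 1. It was 0.0826% at Day 15 and 0.0058% at Day 30. Between neighbouring ages only 1 step of the pair passed the test: Mt2 fell by 4.07 on the log2 scale from Day 25 to Day 30 (adjusted p = 0.000717, limma), a step at which 1.64% of all genes were called. Mt2 was at 11.1, 141 and 179 FPKM at Day 25, so the 3 mice of Day 25 all lay above the 3 of Day 30. The size of this step rested on single mice: it was -5.31 without Day 25 replicate 1 and -3.37 (adjusted p = 0.0166) without Day 25 replicate 3. Mt1 went from 24.8, 171 and 183 FPKM to the Day 30 values above, which overlap, and its difference of -2.21 did not pass (adjusted p = 0.108).

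At birth Mt1 differed by -1.17 (adjusted p = 0.141) and Mt2 by -1.55 (adjusted p = 0.0698). All 3 mice of Day 0 nevertheless lay below all 3 of GD17.5 for both genes. At that step 54.6% of all genes were called. At Day 1 the values were 836, 1677 and 2123 FPKM of Mt1 and 585, 1343 and 1164 FPKM of Mt2, differences from Day 0 of 0.46 (adjusted p = 0.627) and 0.88 (adjusted p = 0.356) that did not pass.

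The step tests for the metallothioneins were limited by a wide spread between mice of one age. The SD within ages was 0.887 for Mt1 and 0.951 for Mt2 on the log2 scale. The median of 4779 genes with at least 10 FPKM at one age was 0.235, and 98.8% and 98.9% of them lay below Mt1 and Mt2. The 3 mice of Day 10 held 121, 417 and 670.4 FPKM of Mt1 and 34.2, 184 and 221 FPKM of Mt2. At Day 60 replicate 3 held 113 FPKM of Mt1, 6.25 times the lowest mouse, and also the most Mt2 (30.4 FPKM).

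Mt1 and Mt2 varied together among mice of the same age. Over the 36 mice, deviations from the age means had a Pearson r of 0.945 and a Spearman rho of 0.907, with an adjusted permutation p of 2.2e-05 and 6.6e-05 over 11 relations. Without the 2 mice farthest from the median, r was 0.928. In 8 of the 12 ages the 3 mice had the same order for both genes. The transcripts, of 631 and 556 bases, share no identical stretch longer than 20 bases. Stretches with mismatches were not sought, and the mapping of reads between the 2 genes was not tested.

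**Figure D2:**
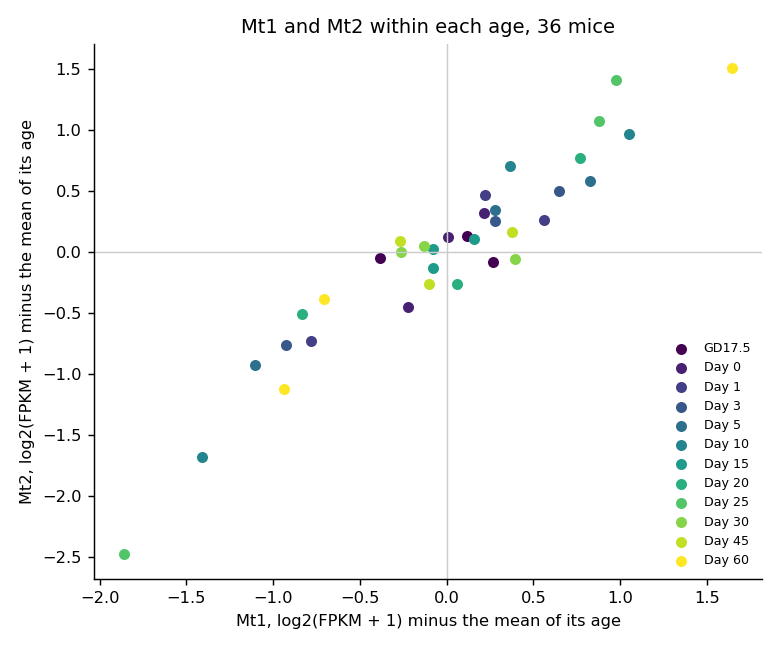
Mt1 against Mt2 in 36 mice, each as log2(FPKM + 1) minus the mean of its age, coloured by age. Mice with more Mt1 than the others of their age held more Mt2 (r = 0.945), and the farthest point at the lower left is a Day 25 mouse with 24.8 FPKM of Mt1 and 11.1 of Mt2.

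Part of this spread moved with the libraries. The deviations of Mt1 correlated with the length trend of the library at r = -0.56 (rho = -0.67, adjusted permutation p = 0.00136 and 0.000126), so Mt1 read higher where short transcripts did, and those of Mt2 at r = -0.43 (rho = -0.46, adjusted permutation p = 0.0474 and 0.0112). With the length and GC trend removed the perinatal differences were 4.29 for Mt1 and 4.59 for Mt2, and from Day 25 to Day 30 Mt2 fell by 4.17. Mt1 rose in order from replicate 1 to 3 at GD17.5 and Days 1, 3, 5, 10, 20, 25 and 45. It did not at Days 0, 15, 30 and 60. Slc31a1 (r = 0.94), Slc39a14 (0.86), Mtf1 (0.85), Atp7b (0.84), Slc30a1 (0.79) and Cp (0.71) read higher where long transcripts did. Their adjusted permutation p was at most 0.000206. Commd1 was at -0.34 (adjusted permutation p = 0.057). The part of the library trend or of the replicate order in these spreads was not tested further.

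The ratio of Mt1 to Mt2 was between 1.37 and 3.62 at 11 ages and 6.33 at Day 30 (5.23 to 8.84 in its 3 mice). From GD17.5 to Day 5 its log2 value averaged 0.86 over ages and from Day 25 to Day 60 it averaged 1.37. The difference of -0.51 did not pass a two-sided exact permutation test over age means (p = 0.373, where 126 splits allow no p below 0.0159).

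Several markers of other cells moved with the metallothioneins. The 8 neutrophil markers summed to 1647 to 4260 FPKM in the perinatal livers, 8.96 to 678 before weaning and 1.15 to 8.40 in the adolescent to adult livers. The 8 erythroid markers summed to 21489 to 185236, 2492 to 18679 and 650.2 to 5673 FPKM in the same groups, and no marker of either list was at 0 throughout a group. Their part in the fall of Mt1 and Mt2 was not tested. Of the 8 acute-phase genes listed, 7 were lower in the perinatal livers and Lcn2, named after its values were seen, was higher (a difference of 4.79, adjusted p = 4.38e-24, limma). Its group means were 213.7 FPKM in perinatal, 29.7 in pre-weaning and 7.88 in adolescent to adult livers. This is the direction of the neutrophil markers, and which cells held Lcn2 was not tested. The 8 acute-phase genes summed to 248 to 6760 FPKM in perinatal and 5103 to 9126 in adolescent to adult livers. By group means most of this was Hp and Hpx (2027 and 1132 FPKM in perinatal, 2277 and 4168 in adolescent to adult livers). Exocrine pancreas markers, which reached 17977 FPKM in Day 60 replicate 1, were at 1.75 FPKM in Day 60 replicate 3, the mouse of that age with the most Mt1. Their part in the spread of Mt1 was not tested.

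Mtf1, the transcription factor that senses zinc, was a low transcript at every age. At GD17.5 the livers held 2.56, 1.55 and 1.75 FPKM of Mtf1, and at Day 0 they held 0.851, 0.821 and 0.650 FPKM. The 3 newborn mice lay below all 3 of GD17.5, a difference of -0.72 ± 0.16 (adjusted p = 0.000363, limma), and this step was called under all 4 scalings (-0.99 to -0.34). At the other ages mean Mtf1 was between 0.575 FPKM (Day 30) and 1.33 FPKM (Day 3).

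Perinatal mice (0.650 to 2.56 FPKM of Mtf1) overlapped adolescent to adult mice (0.232 to 1.21). The difference was 0.40 ± 0.07 (adjusted p = 1.46e-05), below the median of all genes. It was 0.10 (adjusted p = 0.176) with a common upper quartile and turned to -0.18 (adjusted p = 0.000552) with the length and GC trend removed. Between the highest and the lowest age mean Mt1 differed 123-fold, mean Mt2 509-fold and mean Mtf1 3.40-fold.

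Slc30a1, the zinc exporter, had its clearest change on the first day of life. The livers held 1.18, 1.06 and 1.08 FPKM of Slc30a1 at Day 0 and 3.76, 3.12 and 3.00 FPKM at Day 1. All 3 mice of Day 1 lay above all 3 of Day 0, and Day 1 was the highest age. The rise was 1.02 ± 0.17 on the log2 scale (adjusted p = 4.6e-05, limma), at a step where 31.6% of all genes were called, and was 0.63 to 1.36 under the 3 other scalings.

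From GD17.5, with 2.39, 1.73 and 1.50 FPKM, to Day 0 Slc30a1 fell by 0.44 (adjusted p = 0.032), a call lost with a common upper quartile (-0.26), with a common sum (TPM, -0.58), without GD17.5 replicate 1 (-0.31) and without Day 0 replicate 2 (-0.42) or 3 (-0.43), and turned to 0.085 with the length and GC trend removed. The perinatal against adolescent to adult difference of 0.23 (adjusted p = 0.011) turned to -0.19 (adjusted p = 0.0172) with a common upper quartile and to -0.31 with the length and GC trend removed, so no direction between these age groups is given. Mt1 and Mt2 did not peak with Slc30a1: their highest age was GD17.5.

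Slc39a14, an importer of zinc that also carries iron and manganese, rose after birth and fell at weaning. The livers held 9.22, 6.99 and 7.33 FPKM of Slc39a14 at GD17.5 and 12.8, 19.8 and 17.7 FPKM at Day 0. All newborn values lay above all those of GD17.5 (1.00 ± 0.28, adjusted p = 0.00453, limma), at a step where the summed hepatocyte markers were higher as well and their part was not tested. Day 1 livers held 14.5, 13.4 and 9.30 FPKM and Day 3 livers 21.4, 26.3 and 22.7 FPKM, a further step of 0.89 (adjusted p = 0.0404, with 11.3% of all genes called) that was lost when any 1 of these 6 mice was left out (0.71 to 1.00), with a common upper quartile (0.74, adjusted p = 0.0562), with TPM (0.80, adjusted p = 0.158) and, by a small margin, with a pseudocount of 0.1 or no filter on low values.

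The highest mean of Slc39a14, 29.6 ± 4.11 FPKM (SD, n = 3), was at Day 5. The 9 pre-weaning livers held 17.3 to 32.3 FPKM, with a median of 23.9, and the 12 adolescent to adult livers 3.73 to 12.8 FPKM, with a median of 9.23. The groups did not overlap, and the difference was 1.43 ± 0.15 (adjusted p = 6.37e-09), 1.15 to 1.48 under the other scalings. Between Day 20 (23.7, 17.4 and 18.5 FPKM) and Day 25 (12.8, 5.26 and 11.3 FPKM), the ages on either side of weaning, Slc39a14 fell by 1.02 (adjusted p = 0.0235, with 7.19% of all genes called). This call was lost without Day 20 replicate 1, Day 20 replicate 3 or Day 25 replicate 2 (-0.89, -1.06 and -0.67). It stood with the length and GC trend removed (-0.87, adjusted p = 0.00115). Within ages Slc39a14 followed the length trend of the libraries at r = 0.86.

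**Figure D3:**
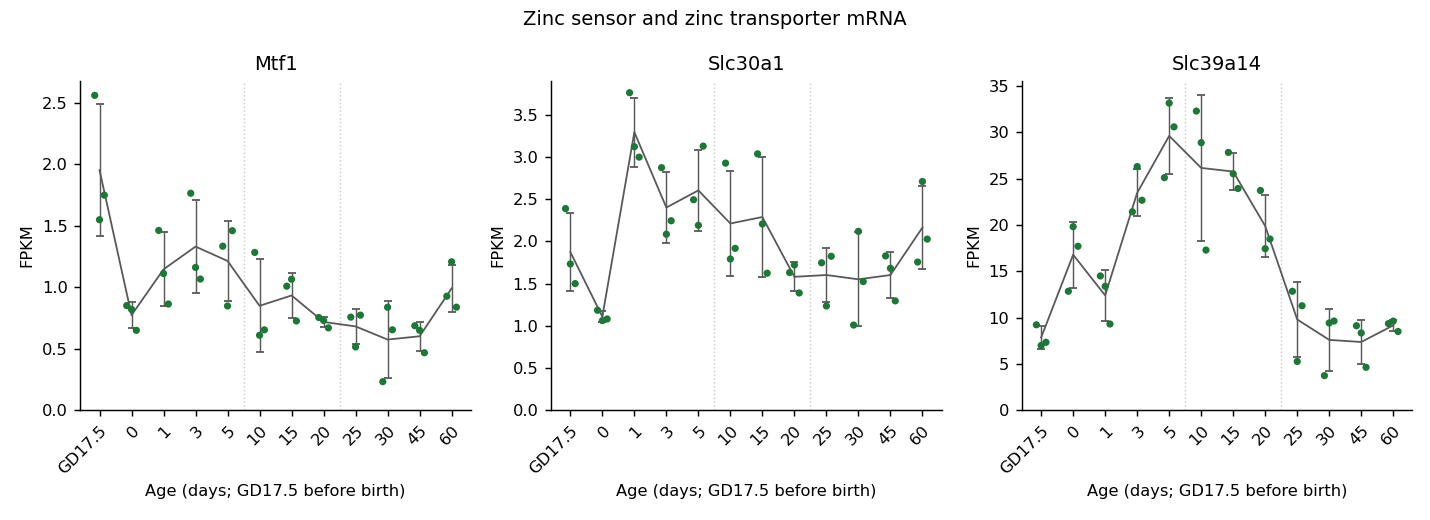
Mtf1, Slc30a1 and Slc39a14 in FPKM at 12 ages, with 1 point per mouse and lines through means ± SD of 3 mice. Slc30a1 rose from 1.11 FPKM at Day 0 to 3.29 at Day 1, and Slc39a14 stood at 19.9 FPKM at Day 20 and 9.79 at Day 25.

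Slc31a1, the copper importer of the cell surface, was lowest at birth. The livers held 20.0, 13.01 and 13.2 FPKM of Slc31a1 at GD17.5 and 8.53, 12.3 and 8.92 FPKM at Day 0. Day 1 livers held 23.8, 19.2 and 13.7 FPKM, all above the newborn ones. The rise of 0.85 ± 0.27 (adjusted p = 0.0169, limma) held under all 4 scalings but was lost without Day 0 replicate 1, Day 0 replicate 3 or Day 1 replicate 1 (0.76, 0.79 and 0.67). Within ages Slc31a1 followed the length trend of the libraries at r = 0.94, and the part of this trend in its spread was not tested.

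From Day 5 onward mean Slc31a1 stayed between 19.5 and 27.9 FPKM. The perinatal livers were lower than the pre-weaning ones by 0.53 ± 0.14 (adjusted p = 0.00098) and than the adolescent to adult ones by 0.39 ± 0.13 (adjusted p = 0.0061), with overlap in both. These differences were 0.53 to 1.00 and 0.39 to 0.99 in size, in the same direction, under the scalings tried.

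Atox1, the chaperone that hands copper to Atp7b, was the most abundant of the 5 copper genes at GD17.5, with 83.5, 140.4 and 109.7 FPKM. Newborn livers held 95.0, 85.7 and 87.6 FPKM of Atox1 and Day 30 livers 238, 150.3 and 156 FPKM. It was lower by 0.36 ± 0.10 in the perinatal livers (adjusted p = 0.00161, limma) and by 0.34 ± 0.11 in the pre-weaning livers (adjusted p = 0.0114) than in the adolescent to adult livers. The highest values at Days 25, 30 and 45 (238, 238 and 194 FPKM) were in the 3 libraries in which short transcripts read highest, and Atox1, with 541 bases, followed this trend at r = -0.90 (rho = -0.90, adjusted permutation p = 2.2e-05 and 2.75e-05). With the trend removed the perinatal difference was -1.19 (adjusted p = 3.27e-19).

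Atp7b, the copper pump that is lost in Wilson disease, was a low transcript that was highest before birth. Its levels were 3.26, 2.98 and 1.99 FPKM at GD17.5 and 0.480, 1.53 and 1.08 FPKM at Day 0. All newborn values lay below all those of GD17.5 (-0.90 ± 0.26, adjusted p = 0.00503, limma), and the fall was called under all 4 scalings (-1.18 to -0.68). GD17.5 was the only age at which Atp7b differed from Day 60 (0.90, adjusted p = 0.00564).

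Over the whole perinatal group Atp7b was higher than in adolescent to adult livers by 0.50 ± 0.12 (adjusted p = 0.000562). This was 0.18 (adjusted p = 0.187) with a common upper quartile and turned to -0.24 (adjusted p = 0.00789) with the length and GC trend removed. Before weaning the difference was 0.40 (adjusted p = 0.0172), lost without Day 10 replicate 1 or Day 15 replicate 1 (0.30 and 0.34) and with the trend removed (0.073). The lowest value of all, 0.118 FPKM, was in Day 30 replicate 1, the library in which long transcripts read lowest.

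Commd1, a partner of Atp7b in the export of copper, also fell at birth, from 32.6, 43.8 and 47.2 FPKM at GD17.5 to 19.8, 30.0 and 14.9 FPKM at Day 0. The groups did not overlap and differed by -0.94 ± 0.23 (adjusted p = 0.00101, limma), a call lost with the length and GC trend removed (-0.39, adjusted p = 0.297). Mean Commd1 then went up to 35.4 FPKM at Day 5 and was 18.7 and 19.3 FPKM at Days 45 and 60. The perinatal excess of 0.47 (adjusted p = 0.000225) turned to -0.15 (adjusted p = 0.226) with a common upper quartile and to -0.042 (adjusted p = 0.8) with the trend removed. The length used for Commd1 was that of its longest transcript, 4508 bases. Within ages Commd1 followed the length trend at r = -0.34, where Slc31a1 (4154 bases) and Cp (4564 bases) were at 0.94 and 0.71. Whether this length suits Commd1 in these livers was not tested, so its values with the trend removed may not apply.

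Cp, ceruloplasmin, the copper-carrying ferroxidase of plasma, had the largest rise of the 10 genes, 13.9-fold between the means of its lowest and highest age. The livers held 24.7, 11.3 and 17.9 FPKM of Cp at GD17.5 and 71.0, 44.1 and 33.4 FPKM at Day 0. Day 1 livers held 129, 123 and 117 FPKM. The 3 ages did not overlap. The steps were 1.41 ± 0.34 at birth (adjusted p = 0.001, limma) and 1.36 ± 0.34 over the first day (adjusted p = 0.00333), and both were called under all 4 scalings.

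Cp was highest at Day 15, with 278, 289 and 181 FPKM. Pre-weaning livers held 172 to 289 FPKM of Cp (median 214), adolescent to adult livers 69.0 to 202 FPKM (median 129) and perinatal livers 11.3 to 251 FPKM (median 114). The pre-weaning level was higher than the perinatal one by 1.55 ± 0.17 (adjusted p = 4.46e-09) and than the adolescent to adult one by 0.81 ± 0.18 (adjusted p = 0.000407). Cp is itself an acute-phase gene, and the 8 acute-phase genes listed summed to 248 to 479 FPKM at GD17.5 and 6369 to 8633 FPKM before weaning. Before weaning most of this sum was Hp and Hpx (means of 2909 and 4385 FPKM). Each of the others averaged at most 29.7 FPKM there, with Saa1 at 4.97 and Orm1 at 6.37. At Day 0 the 8 acute-phase genes summed to 2129 to 2957 FPKM, and the hepatocyte markers summed to at least 63772 FPKM, against at most 11797 at GD17.5. The part of either list in the rise of Cp was not tested.

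**Figure D4:**
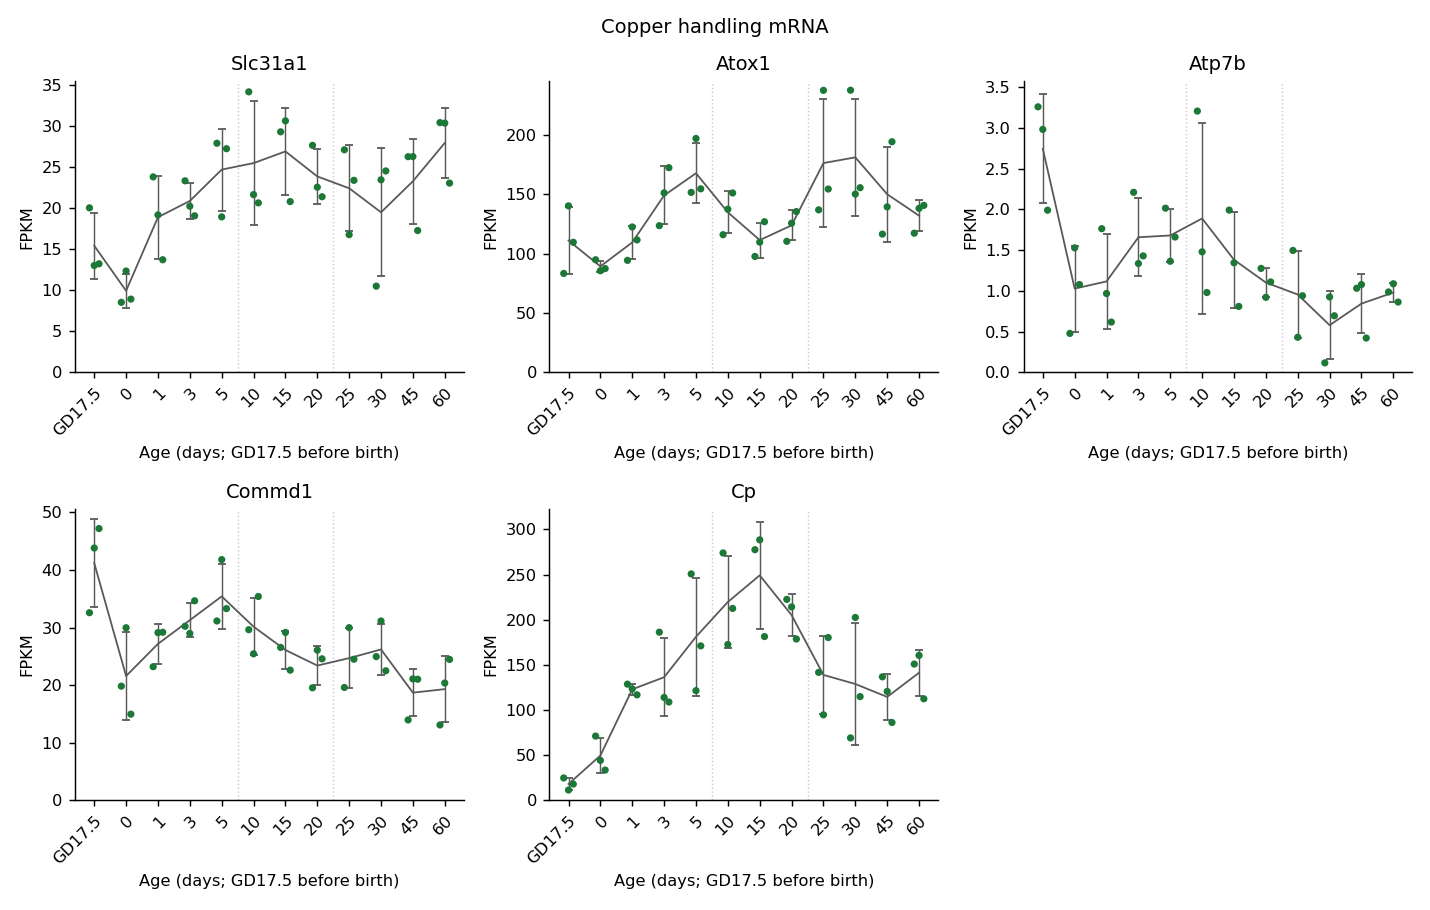
The 5 copper genes in FPKM at 12 ages, with 1 point per mouse and lines through means ± SD of 3 mice. Cp went from 17.9 FPKM at GD17.5 to 249 at Day 15, and Slc31a1, Atox1 and Commd1 had a low at Day 0 (9.93, 89.4 and 21.6 FPKM).

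Of the 12 calls between neighbouring ages 6 were at birth, where 54.6% of all genes were called as well. From GD17.5 to Day 0, 6 members were called (Mtf1, Slc30a1, Atp7b and Commd1 lower, Slc39a14 and Cp higher), and from Day 0 to Day 1 3 were called (Slc30a1, Slc31a1 and Cp higher), beside 31.6% of all genes, so both counts are near the background. Day 3 (11.3% of all genes), Day 25 (7.19%) and Day 30 (1.64%) had 1 call each. No member was called at Day 5 (3.2% of all genes), Day 10 (36.3%), Day 15 (12.0%), Day 20 (1.99%), Day 45 (1.03%) or Day 60 (0.233%), each against the age before it. Of these 6 steps limma gave an unadjusted p under 0.05 to 1 member at Day 10 (Mt2, -1.57, adjusted p = 0.0904) and to 2 at Day 45 (Mt2, 2.57, adjusted p = 0.0928, and Commd1, -0.48, adjusted p = 0.546).

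**Figure D5:**
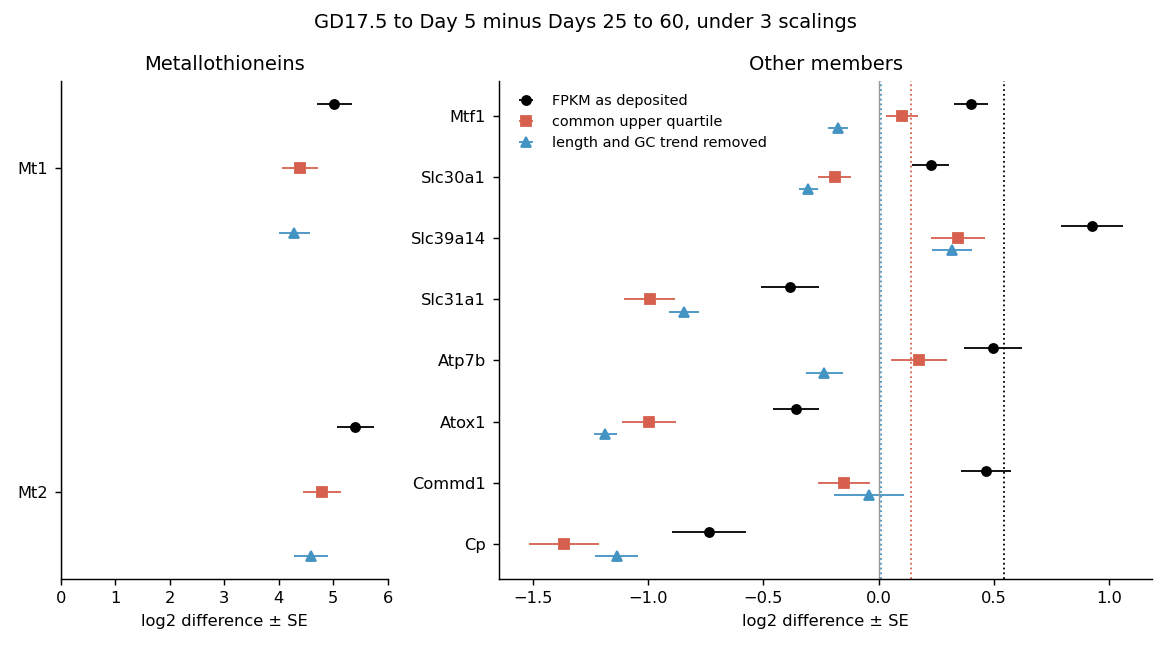
Perinatal minus adolescent to adult difference on the log2 scale (± SE) for the 10 members with FPKM as deposited (black), a common upper quartile (red) and the length and GC trend removed (blue), where dotted lines are the medians of all genes. Mt1 and Mt2 stayed at 4.29 or more, Slc31a1, Atox1 and Cp stayed below 0, and Mtf1, Slc30a1, Atp7b and Commd1 lay on both sides of 0.

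The genes with the course over 12 age means most like that of each member, among 4772 genes, were given by Pearson r as a description. For Mt1 they were Snx12 (0.990), St3gal5 (0.983) and Cxxc1 (0.979), and for Mt2 they included Snx12 (0.956) and Abcb8 (0.948). Mt1 and Mt2 themselves were at 0.981. The nearest for Mtf1 was Map2k4 (0.986), for Slc30a1 Fahd1 (0.940) and for Slc39a14 Flt4 (0.984), ahead of Scarb1 (0.976). For the copper genes they were Dsg2 (Slc31a1, 0.966), Alkbh7 (Atox1, 0.903), Ctsb (Atp7b, 0.953), Pfdn1 (Commd1, 0.933) and Aqp9 (Cp, 0.980).

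Of 50 further zinc and copper genes listed, 49 were in the table and 38 were tested. In the perinatal livers 22 of them were higher than in the adolescent to adult ones, 5 were lower and 11 were not called, beside 70.2% of all genes higher and 15.5% lower. Their median was 0.32 against 0.54 over all genes. With a common upper quartile 18 of the 38 turned direction. Mt3 and Mt4, the metallothioneins of brain and skin, summed to at most 0.354 FPKM in any liver and were not tested.

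Among these lists the largest fall with age was that of Slc39a5, another zinc importer. Mean Slc39a5 was 65.9 ± 11.9 FPKM (SD, n = 3) at GD17.5, 82.4 ± 20.9 at Day 5, 31.96 ± 5.72 at Day 10 and 0.577 ± 0.317 at Day 45. The difference was 4.96 (adjusted p = 4.52e-23, limma), and 4.47 with a common upper quartile. Markers of the exocrine pancreas, a tissue rich in Slc39a5, summed to at most 2.28 FPKM in the GD17.5 livers, but to 533 to 5374 at Day 0. Their medians were 629 in perinatal, 380.4 in pre-weaning and 1.59 in adolescent to adult livers, but single mice reached 5374, 6234 and 17977 FPKM. Day 60 replicate 1 held 17977 FPKM and Day 45 replicate 1 held 4240 FPKM of these markers. At these 2 ages Slc39a5 was at most 2.88 and 0.858 FPKM. The part of these markers in the fall of Slc39a5 was not tested. Among the Slc39 family, 10 of 13 genes were tested, 6 were higher and 1 lower in perinatal livers, beside 70.2% and 15.5% of all genes. With a common upper quartile 3 of the 6 lay at or under 0. Among 9 listed exporters of the Slc30 family, 7 were tested and 2 were higher (Slc30a5 and Slc30a9). With a common upper quartile these 2 were at -0.034 and -0.076.

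Steap3, a metal reductase known from red cell precursors, had the next largest fall, from 47.3 ± 4.98 FPKM at GD17.5 to 13.5 ± 1.59 at Day 60 (difference 1.27, adjusted p = 2.04e-12). The largest differences in the other direction were those of Sco2, which delivers copper to cytochrome c oxidase, and Slc39a4, the zinc importer of the gut. Sco2 rose from 2.30 ± 0.388 FPKM at GD17.5 to 26.1 ± 4.31 at Day 60 (perinatal difference -1.42, adjusted p = 2.93e-13, limma). Slc39a4 was lower in the perinatal group (-0.45, adjusted p = 3.49e-05) but did not follow age: the GD17.5 mean was 23.9 FPKM, newborn livers averaged 58.2, Day 20 livers 28.2, Day 25 livers 63.2 and Day 60 livers 44.7 FPKM. Of the other 9 COMM domain genes, relatives of Commd1, 7 were higher and 1 lower in the perinatal livers, beside 70.2% and 15.5% of all genes, and with a common upper quartile 5 of the 7 lay at or under 0.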

How the data were processed

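The authors sequenced polyadenylated liver RNA as paired ends, mapped the reads to NCBI37/mm9 with TopHat 1.2.0 and estimated abundance with Cufflinks 1.0.3 against the Ensembl annotation; they deposited 1 FPKM value per gene symbol and mouse, on the linear scale, without counts. No scaling between libraries beyond FPKM is stated, and the deposited values carry no counts per library, so no counting interval is given.

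The 11149 of 21889 symbols that reached a mean of 1 FPKM at some age were fitted on log2(FPKM + 1) with limma 3.58.1 in R 4.3.3, with a mean for every age, all 36 mice in the fit and variances that follow expression; folds of low genes are understated on this scale. Benjamini-Hochberg adjustment was over all genes within a comparison, or over all 11 ages together for Day 60, with a threshold of 0.05. The fit was checked on simulated data. Python 3.11.15, pandas 2.3.3, numpy 2.4.6 and scipy 1.17.1 gave summaries and permutation tests (100000 permutations of mice within ages for correlations). Starts and lengths came from GENCODE M1, and the longest protein-coding transcript of each symbol gave its length and GC content. A transcript was found for 97.7% of tested genes. The age groups are those of the study, which drew them by clustering these samples.

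The genes named are all members, the 2 largest differences called in each direction among the other zinc and copper genes, and for each member the 3 most alike genes with at least 10 FPKM at one age (of which some are printed). Slc30a5, Slc30a9 and Lcn2 were named after their values were seen. The members, lists and tests were chosen with earlier results of these data known. Alternatives were a pseudocount of 0.1, no filter or a filter at 5 FPKM, a common upper quartile, a common sum (TPM), a replicate block, a constant prior variance, Dunnett's comparison, each mouse left out in turn and, added after seeing the data, each library's trend with length and GC content removed.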

Additional observations from a re-analysis of the deposited data

How the results depend on the processing

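Of 1835 values of single members recomputed under the alternatives, 1781 kept their direction and their side of the threshold, 30 lost and 12 gained a call, and 12 turned direction. None of these values came from Dunnett's comparison. Mt1, Mt2, Slc39a14 and Cp kept every call between age groups. With a common upper quartile the turned values were Slc30a1 (-0.19 for perinatal against adolescent to adult, 0.25 for pre-weaning against perinatal) and Commd1 (-0.15 and 0.28). With the length and GC trend removed, chosen after seeing the data, they were Mtf1 (-0.18 for perinatal and -0.18 for pre-weaning, each against adolescent to adult), Slc30a1 (-0.31, 0.21 for pre-weaning against perinatal and 0.085 for Day 0 against GD17.5), Atp7b (-0.24 and 0.31) and Commd1 (-0.042). The number of steps called was 12, became 20 with this trend removed and was 10 to 16 with single mice left out; the cause was not tested. Leaving out single mice gave 9 to 10 members for any age, 10 to 10 for perinatal against adolescent to adult, 5 to 7 before weaning against adolescent to adult, 6 to 6 before weaning against perinatal, and -0.57 to -0.43 for the ratio of Mt1 to Mt2. Mice of different ages that share a replicate number are different animals. Between ages, deviations of mice with the same number correlated at a median of 0.13 (-0.68 to 0.83) and with different numbers at -0.05. The order of Mt1 by replicate number at several ages is given above, and what the numbers stand for is not stated. A replicate block changed 1 call, Commd1 before weaning against adolescent to adult (0.27, adjusted p = 0.0262 against 0.0602 by limma). The steps of Slc31a1, Slc39a14 and Slc30a1 rest on 3 mice an age, and the values carry no counts, so the counting error of low genes such as Mtf1 and Atp7b is not given.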
